A study of Homo sapiens with 6 samples.

Results

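The introns described here are the close neighbours of introns that K562 cells retained after knockdown of ZRSR2, and they were chosen by measured retention. An intron counted as retained when its mean over the libraries reached 50 reads, boundary and spliced added up, when its retention was higher in all 4 ZRSR2 shRNA libraries than in both control libraries, and when its mean retention rose by at least 5 percentage points. This set held 1356 introns. A neighbour was any other intron with the same minimum of reads, on the same chromosome and strand, that overlapped no retained intron, was not itself in the set and ended within 300 nt of one. The rule found 1650 neighbours among 116705 introns with enough reads and 241593 introns in the tables. Since the shRNA against control contrast chose the retained introns and barred from the neighbours any intron that met the same limits, values of that contrast are given as a description, and calls of edgeR in it serve to pick introns to show, not as a test of the neighbours.

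Introns are removed from RNA by spliceosomes, and nearly all are of the U2 type. A small class, the U12-type introns, has its own 5′ splice site and branch point letters and is removed by the minor spliceosome. ZRSR2 belongs to that machinery and helps it to find the 3′ splice site. Genes with a U12-type intron usually hold a single one among many U2-type introns, so the intron next to a retained U12-type intron is normally removed by the other machinery. U2-type splice sites are often recognised in pairs across the exon that lies between 2 introns.

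The cells were K562, a human leukaemia line with erythroid features. They were transduced with 1 of 2 shRNAs against ZRSR2, named sh1 and sh2, or with a control shRNA, named Con_sh. Each of these 3 groups had 2 libraries of polyA-selected RNA, numbered experiment 1 and experiment 2. Apart from the shRNA, all libraries carried the same labels, which are silent on separate cultures, so the spread between them may be technical.

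The tables count reads of 2 kinds: boundary reads cross either end of an intron into its exon, and spliced reads join the exons on both sides. Retention, the MSI of the tables, is 100 × boundary / (boundary + 2 × spliced), in percent. A library held between 82986327 and 101120454 spliced reads and between 4387311 and 5199693 boundary reads. Spliced reads of ZRSR2 came to 9.94 and 9.82 CPM (scaled to the library's total of spliced reads) with sh1, 9.50 and 11.4 CPM with sh2 and 25.7 and 21.5 CPM in the control, with no overlap between the knockdown libraries and the control. In such bulk samples, fewer cells with the RNA and less RNA per cell cannot be told apart. All 10 erythroid markers of K562 were detected. In experiment 1 and experiment 2, their summed level was 11076 and 5317 CPM with sh1, 18385 and 8174 with sh2 and 4255 and 5787 in the control. It was thus higher in experiment 1 with both shRNAs but not in the control, and its part in the results below was not tested. Summed lymphoid markers stood at 9.33 to 15.4 in the knockdown libraries and 12.9 to 17.7 in the control, myeloid markers at 15.5 to 31.1 and 19.9 to 27.6, and stromal or epithelial ones at 90.8 to 115 and 118 to 128. In the last list EPCAM stood at 79.5 to 107 in the knockdown libraries and 102 to 114 in the control. COL1A1 stood at 5.01 to 17.7 and 14.4 to 16.1, and KRT5 at 0 in all knockdown libraries.

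A neighbour was separated from its retained intron by an exon with a median length of 112 nt (interquartile range 82 to 156). They fell in 878 named genes, no name was found for 20, and 97.3% shared the named gene of the retained intron. In transcript direction 818 were upstream and 832 downstream. Of the 1356 retained introns, 1082 had at least 1 neighbour and 498 had neighbours on both sides. Neighbours had a median length of 1011 nt, against 1300 nt for the retained introns and 1483 nt for all other introns with enough reads. Another intron of the tables overlapped 425 neighbours (25.8%), through alternative splice sites or a gene on the other strand, and reads of such introns cannot be assigned with certainty.

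The first bases of an intron show which class its 5′ splice site belongs to, and they are shown here because the retained introns and their neighbours are joined by 1 exon yet need not share a class. The bases were read from RefSeq promoter windows on GRCh38.p14, which reach 50 bases past a gene's start. An intron was read where its 5′ end fell in the window of any gene, on either strand. This covered only 36 of the 1356 retained introns, 18 of the 1650 neighbours and 1719 of the 116705 introns with enough reads. The letters ATATCC or GTATCC at the start were taken as U12-type letters and GTAAG or GTGAG as U2-type letters, on the coding strand. U12-type letters opened 2 of the 36 retained introns (5.56%), 0 of the 18 neighbours and 3 of the 1719 introns in all (0.175%). U2-type letters opened 17 of the 36 (47.2%), 10 of the 18 (55.6%) and 979 of the 1719 (57.0%). A match is a description of these letters, and their absence says nothing of the factor that acts there. The lines below give the first 10 bases 5′ to 3′, with the matched letters in capitals, for the retained PHYH intron, which has U12-type letters and a neighbour, for the retained NDUFS1 and PTTG1IP introns with U2-type letters, and for 4 neighbours.
PHYH, retained, chr10:13298246-13299967, minus strand: GTATCCtttg
NDUFS1, retained, chr2:206147835-206159340, minus strand: GTGAGgtctt
PTTG1IP, retained, chr21:44851628-44865394, minus strand: GTAAGtagca
E2F2, neighbour, chr1:23521072-23521836, minus strand: GTGAGtgcct
HARS1, neighbour, chr5:140690945-140691214, minus strand: GTGAGattta
SAXO2, neighbour, chr15:82262933-82263138, plus strand: GTAAGaaacg
TMEM80, neighbour, chr11:695847-698868, plus strand: GTGAGctcgg

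PHYH encodes the enzyme that starts the breakdown of phytanic acid in peroxisomes. Its retained intron rose by 7.82 points, and the intron downstream of it, across an exon of 59 nt, had a retention of 1.83% and 5.77% with sh1 and 2.98% and 7.83% with sh2, against 4.76% and 5.02% in the control. The groups overlapped, and the mean difference was -0.28 points. NDUFS1, a subunit of respiratory complex I, held a retained intron that rose by 17.4 points, while its downstream neighbour stood between 0% and 0.136% in every library. E2F2 encodes a transcription factor of the cell cycle. Its U2-lettered neighbour upstream had a retention of 3.18% and 1.44% with sh1 and 2.24% and 1.57% with sh2, against 1.81% and 3.40% in the control. The neighbour of HARS1, the histidyl-tRNA synthetase, reached at most 0.377% in any library, beside a retained intron that rose by 11.3 points. SAXO2, a protein of axonemal microtubules, had an upstream neighbour with high retention in every group, at 64.7% and 64.3% with sh1 and 70.0% and 71.0% with sh2, against 63.9% and 62.7% in the control. All 4 of its knockdown libraries were higher, by 4.24 points on average.

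Neighbours as a group were slightly more retained after the knockdown, far less than the introns that chose them. Median retention over the 1650 neighbours was 3.33% and 2.65% with sh1 and 3.45% and 3.07% with sh2, against 2.27% and 2.41% in the control, each pair given as experiment 1 and experiment 2. Group means of these medians were 2.99% ± 0.480 with sh1, 3.26% ± 0.269 with sh2 and 2.34% ± 0.0998 in the control (SD, n = 2 each). The medians of all 4 knockdown libraries lay above those of both control libraries.

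The retained introns had medians of 27.1% and 18.0% with sh1 and 24.8% and 18.6% with sh2, against 9.06% and 8.95% in the control. The 9220 other introns of the same genes had medians of 1.59% and 1.45% with sh1, 1.58% and 1.71% with sh2, and 1.39% and 1.53% in the control, so their groups overlapped. All 113699 introns outside both sets, which include those 9220, had medians of 1.32% and 1.12% with sh1, 1.32% and 1.36% with sh2, and 1.10% and 1.25% in the control. The median rise, the mean of the 4 knockdown libraries minus the mean of both control libraries, was 0.509 points for neighbours, 9.49 points for retained introns, 0.0775 points for other introns of the same genes and 0.0656 points for all other introns. The rule asked for no edgeR call. Over both shRNAs, edgeR counted 334 of the 1356 retained introns as higher at an adjusted p under 0.05, against 0.33% of all introns tested. Beside retained introns that edgeR called lay 467 neighbours, with a median rise of 0.338 points. Beside those not called lay 1183 neighbours, with a median rise of 0.625 points.

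**Figure D1:**
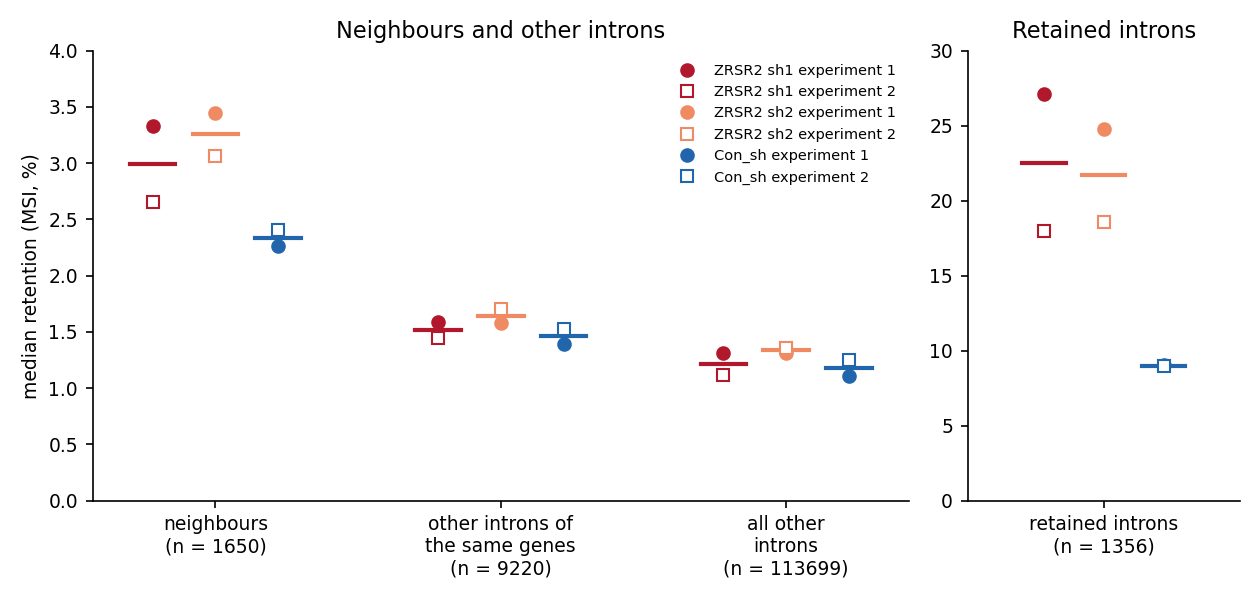
Median retention (MSI, percent) of each library over the 1650 neighbours, the 9220 other introns of the same genes and all 113699 other introns (left) and over the 1356 retained introns (right, another scale). Filled circles are experiment 1, open squares experiment 2, and bars the mean of both; the neighbours' knockdown medians (2.65% to 3.45%) lie above both control medians (2.27% and 2.41%).

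The spread among neighbours was wide. The interquartile range ran from -0.0354 to 2.19 points, and single neighbours ranged from -11.6 to 25.6 points. Retention rose by more than 1 point in 650 neighbours (39.4%) and fell by more than 1 point in 136 (8.24%), against 13.5% and 9.31% of all other introns. All 4 knockdown libraries exceeded both control libraries in 252 neighbours (15.3%), and the same held for 6.51% of the 115349 introns with enough reads outside the retained set. All 4 were below both control libraries in 45 neighbours (2.73%), against 4.21% of those introns. By the rule, none of the 252 could have risen by 5 points or more, while 143 neighbours rose by at least that much without all 4 libraries lying above the control.

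The rise differed with how well the neighbour was spliced in control cells. Among 483 neighbours with a control retention under 1% the median rise was 0.196 points, among 449 between 1% and 3% it was 0.457, among 397 between 3% and 10% it was 1.06, and among 321 above 10% it was 3.23. Other introns of the same genes rose by 0.0718, 0.0601, 0.155 and 0.429 points in the same 4 ranges. In each range the median of the neighbours was thus above that of the introns that share their genes. The share with all 4 knockdown libraries above the control was 22.2% for neighbours under 1% and 4.67% for those above 10%, against 7.52% and 1.96% in the same genes and 7.84% and 1.71% over all other introns. It was thus lower at high control retention in each set, and by the rule no set counts an intron that rose by 5 points in all 4.

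With introns pooled over genes, the median rise was smaller the farther the intron lay from a retained one of its gene. Introns up to 100 nt away, 647 of 648 of them neighbours, rose by a median of 0.564 points, the neighbours farther off but within 200 nt by 0.470 and those beyond 200 nt by 0.457. Past the limit of 300 nt, the median was 0.289 points up to 1000 nt, 0.138 up to 3000 nt, 0.0495 up to 10000 nt and 0.0299 beyond 10000 nt. All 4 knockdown libraries lay above both control libraries in 17.6%, 15.0% and 9.2% of the neighbours in the 3 distance classes. Beyond the limit the share was between 4.71% and 7.31%, close to the 6.51% over all introns. Control retention differed between the distance classes as well. Its medians were 2.06% and 2.19% up to 100 nt, 3.63% and 3.36% from 301 to 1000 nt and 0.822% and 1.01% beyond 10000 nt. Its part in the differences by distance was not tested.

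**Figure D2:**
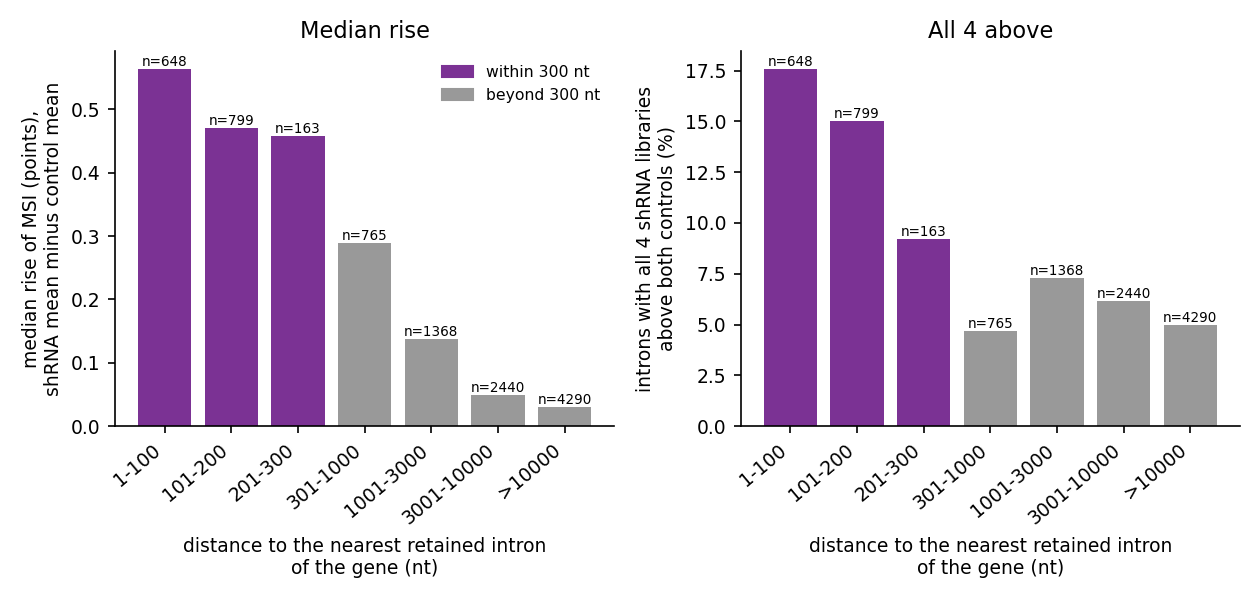
Median rise of retention in percentage points (left) and percent of introns whose 4 knockdown libraries all exceeded both control libraries (right), by the distance in nt to the nearest retained intron of the same gene. Purple bars are introns within 300 nt and grey bars those beyond; the median rise runs from 0.564 points at up to 100 nt to 0.0299 points beyond 10000 nt.

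The limit of 5 points cut through a continuous range of rises. Just inside the limit of 5 points stood neighbours in CRTC1, a coactivator of CREB, in ODR4 and in CDPF1. Their mean rises were 4.98, 4.97 and 4.96 points, with all 4 knockdown libraries above the control. The introns nearest to them on the other side, which count as retained, lay in DERL2, TAFAZZIN and SMAP2 and rose by 5.01, 5.02 and 5.05 points. Rises scattered on both sides of the other limits. At 300 nt lay neighbours in LMBR1L (3.68 points), SPC24 (17.0) and TTN (-0.61), and at 301 and 302 nt lay introns of CUL1 (-4.32 and 0.146) and MLST8 (1.85). Neighbours with 50 to 50.3 reads per library lay in KDM7A (5.26 points), INPP5B (0.0385) and PER3 (1.68), and the introns left out with 49 to 49.7 reads lay in HELZ2 (3.37), RYR3 (16.3) and an unnamed gene (1.93).

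The median rise was larger downstream of the retained intron than upstream, a difference that was not tested. It was 0.746 points over the 832 downstream neighbours and 0.349 points over the 818 upstream ones. Downstream neighbours had median retentions of 3.98% and 2.88% with sh1 and 3.92% and 3.45% with sh2, against 2.47% and 2.54% in the control, without overlap. Upstream neighbours had 2.77% and 2.40% with sh1 and 2.90% and 2.52% with sh2, against 1.97% and 2.34% in the control, a smaller gap that also held for all 4 libraries. All 4 knockdown libraries lay above both control libraries in 17.7% of downstream and 12.8% of upstream neighbours.

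The median rise was positive at both ends of the neighbours, which was not tested. With the reads of a single boundary over those reads plus the spliced reads, the boundary that faces the retained intron gave a rise whose median over the neighbours was 0.559 points, and the boundary on the far side gave 0.382 points. The library medians had a pooled SD between replicates of 0.367 and 0.483 points on these sides. Among the 1225 neighbours that overlap no other intron the rises were 0.433 and 0.355 points. Reads at both ends of a short exon can be the same reads. The facing side rose more in 884 neighbours and the far side in 756. Over exons of up to 100 nt the rises were 0.636 points on the facing side and 0.430 on the far side, over longer exons up to 150 nt 0.503 and 0.270, and over exons beyond 150 nt 0.435 and 0.405. In downstream neighbours the facing side had a median of 0.732 and the far side 0.592, and in upstream neighbours 0.375 and 0.238.

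The neighbour's spliced reads over those of its retained intron had a median of 1.36 and 1.22 with sh1 and 1.29 and 1.22 with sh2, against 1.12 and 1.11 in the control, over 1645 pairs. The rule asks for retained introns with fewer spliced reads relative to boundary reads after the knockdown, so this ratio shows no gain by the neighbour. The 5 other pairs had a library with no spliced read of the retained intron. The size of the neighbour's rise and that of the retained intron had a Pearson's r of -0.012 and a Spearman's rho of -0.0089 over the 1650 pairs, which share libraries, genes and often a retained intron.

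The 12 retained introns with the largest rises among those with a neighbour, 39.4 to 51.3 points, had 17 neighbours in 11 genes, named here with their roles. RNF121 and MYH10 encode a membrane ubiquitin ligase and a nonmuscle myosin, IFT122 and OCRL act in cilia and in phosphoinositide turnover, CLCN7 is a lysosomal chloride transporter, SLC9A8 a sodium-proton exchanger and ICE1 part of the little elongation complex. CUEDC1, C5orf34, CCDC43 and CCDC134 complete the set. Of the 17 neighbours, 11 moved by no more than 1 point, 3 rose by more and 3 fell by more, with a median of 0.

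In RNF121 the retained intron reached 80.4% and 73.5% with sh1 and 87.3% and 80.4% with sh2, against 28.0% and 30.2% in the control. It rested on few reads, a mean of 52.5 per library with 5 to 15 spliced reads, and edgeR did not call it. The intron before it, chr11:71957265-71960749, stood at 0% and 0.0831% with sh1 and 0.199% and 0.101% with sh2, against 0% and 0.0672% in the control. The neighbour, with 448 to 743 spliced reads per library, never exceeded 0.199%, and its groups overlapped. It also overlaps another intron. In ICE1 the upstream neighbour chr5:5436477-5437079 had no boundary read in any library beside a retained intron that rose by 40.3 points. In MYH10 the retained intron reached 53.5% and 23.4% with sh1 and 67.2% and 31.0% with sh2, against 3.59% and 3.20% in the control. Its downstream neighbour stood at 0% and 0.824% with sh1 and 0.940% and 0.621% with sh2, against 0% and 0.328% in the control, with overlapping groups.

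Upstream of the retained intron, 1 of these neighbours rose by more than 1 point, in C5orf34, and 1 fell by more, in CUEDC1 (-1.31 points). The C5orf34 neighbour chr5:43487950-43490630, which overlaps another intron, had 13.0% and 21.2% with sh1 and 12.4% and 13.3% with sh2, against 10.6% and 9.80% in the control, and all 4 knockdown libraries were higher. The upstream neighbour of CLCN7 was lower in all 4, with 0.623% and 0.313% with sh1 and 0.491% and 0.451% with sh2, against 0.695% and 1.21% in the control. In CCDC134 the downstream neighbour chr22:41810001-41810206 was lower in all 4 knockdown libraries, with 0.283% and 0.658% with sh1 and 0.208% and 1.18% with sh2, against 2.20% and 3.18% in the control. It too overlaps another intron.

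Among genes known for their U12-type introns or described earlier for these cells, 44 neighbours lay in 21 genes. Of these, 32 moved by no more than 1 point, 11 rose by more and 1 fell by more, beside retained introns that rose by 5.76 to 38.1 points. The median rise was 0.0984 points. Of the 44, 12 were higher in all 4 knockdown libraries and 4 were lower, while 1 and 2 of the 17 above were. Over all neighbours these shares were 15.3% and 2.73%. MAPK3 and SRP68, on the same list, had no intron in the retained set and so no neighbour.

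PARP1 encodes a poly(ADP-ribose) polymerase that acts at DNA breaks. Its retained intron rose by 22.1 points, and the intron upstream of it, chr1:226362084-226363098, stood at 0.581% and 0.334% with sh1 and 1.05% and 0.397% with sh2, against 0.356% and 0.448% in the control. The groups overlapped. XRCC5 encodes Ku80, a subunit of the end-binding complex in DNA repair. Its upstream neighbour chr2:216113130-216116658 had 0.367% and 0.318% with sh1 and 0.451% and 0.181% with sh2, against 0.0594% and 0.159% in the control, so it was higher in all 4 knockdown libraries by 0.220 points on average, while its retained intron rose by 7.25 points.

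UFD1 encodes a cofactor of the p97 segregase in protein degradation. The downstream neighbour chr22:19458140-19465201 had 0.612% and 0.563% with sh1 and 0.896% and 0.597% with sh2, against 0.297% and 0.322% in the control, without overlap, a rise of 0.357 points beside 22.6 points in the retained intron. The upstream neighbour chr22:19468004-19471686 stood at 0.587% and 0.629% with sh1 and 0.572% and 0.960% with sh2, against 0.698% and 0.718% in the control, with overlap. FRA10AC1 had 3 neighbours with rises between -0.21 and 0.327 points beside a retained intron that rose by 32.4 points.

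Among kinases of the MAP kinase cascade, MAPK8, known as JNK1, had a downstream neighbour with 2.62% and 2.61% with sh1 and 0.845% and 2.03% with sh2, against 1.47% and 2.53% in the control, beside a retained intron that rose by 38.1 points. In MAPK12, a p38 kinase, 2 downstream neighbours stayed between 0.120% and 0.938% in all libraries. The upstream neighbour of MAPK12 was lower in all 4 knockdown libraries, with 0.825% and 1.23% with sh1 and 1.24% and 0.629% with sh2, against 2.32% and 1.40% in the control. ARAF, a RAF kinase, had neighbours that moved apart. The upstream one, chrX:47568895-47568986, had 9.62% and 3.93% with sh1 and 5.93% and 4.52% with sh2, against 2.95% and 2.16% in the control, above it in all 4 libraries. The downstream one, chrX:47569658-47569892, had 0.920% and 0.769% with sh1 and 0.679% and 0.644% with sh2, against 1.34% and 1.14% in the control, below it in all 4.

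Other neighbours of this group stood above the control in all 4 knockdown libraries. E2F3 encodes a cell cycle transcription factor. Its downstream neighbour chr6:20486804-20488112 had 7.55% and 3.86% with sh1 and 7.75% and 4.98% with sh2, against 1.07% and 1.68% in the control, means of 5.71% ± 2.61 with sh1, 6.36% ± 1.96 with sh2 and 1.38% ± 0.428 in the control (SD, n = 2 each). The knockdown libraries did not overlap the control, and both ends of the intron rose: in experiment 1 the facing side stood at 7.66% with sh1 and 8.36% with sh2, against 1.16% in the control, and the far side at 7.43% and 7.13%, against 0.992%. The upstream neighbour of E2F3 had 0.898% and 1.68% with sh1 and 0.763% and 0.341% with sh2, against 1.48% and 1.09% in the control, with overlap.

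STK11 encodes LKB1, a kinase upstream of AMPK. Its downstream neighbour chr19:1219414-1220372 had 11.2% and 8.97% with sh1 and 10.9% and 12.03% with sh2, against 7.96% and 5.57% in the control, without overlap, and its upstream neighbour had 2.84% and 3.03% with sh1 and 4.17% and 2.37% with sh2, against 2.66% and 2.64%, with overlap. POLR2E, a subunit shared by the nuclear RNA polymerases, had 3 neighbours that were all higher in the 4 knockdown libraries, by 0.704 to 1.67 points. TMEM258, a subunit of the oligosaccharyltransferase, had 2 that were higher in all 4, by 0.547 points upstream and 1.12 points downstream. EXOSC2, a subunit of the RNA exosome, had a downstream neighbour at 5.40% and 2.86% with sh1 and 3.19% and 2.88% with sh2, against 2.15% and 2.45% in the control, also without overlap. LZTR1, an adaptor of a ubiquitin ligase, had 5 neighbours with rises between -2.62 and 0.0432 points.

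**Figure D3:**
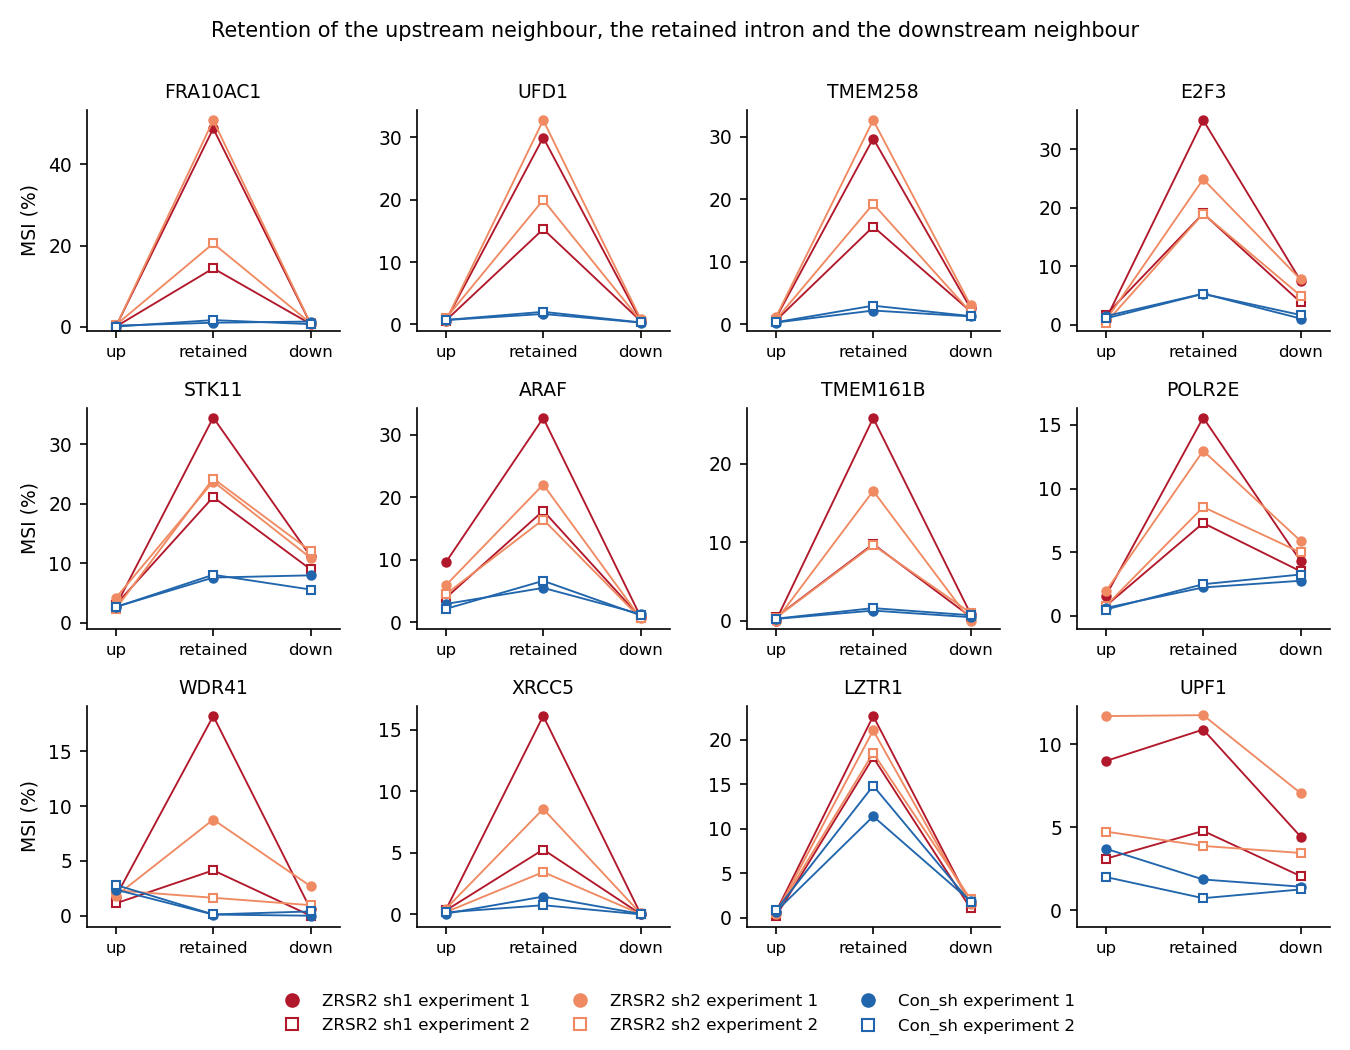
Retention (MSI, percent) of the nearest upstream neighbour, the retained intron and the nearest downstream neighbour in 12 genes, with 1 line for each library. Red and orange are sh1 and sh2, blue is the control, filled circles experiment 1 and open squares experiment 2. Each panel has its own scale, and 1 neighbour is visibly higher with both shRNAs in E2F3 and STK11 (downstream) and in ARAF (upstream). In UPF1 the neighbours rose on average by 4.28 points upstream and 2.92 points downstream.

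The edgeR quasi-likelihood test over both shRNAs, which uses the contrast that chose the set and so tests nothing about the neighbours, counted 30 neighbours as higher and 1 as lower at an adjusted p under 0.05. Over all 134078 introns tested, 0.33% were counted as higher and 0.0209% as lower, and over those outside the retained set 0.0945% and 0.0234%. All 30 lay in the same gene as their retained intron, in 30 genes, and were higher in all 4 knockdown libraries, with a median rise of 2.79 points (0.776 to 4.97). Of the 30, 27 lay downstream of the retained intron and 3 upstream, in ACTL6A, IPO4 and EIF3K. These counts describe a list picked on that contrast, and nothing is read from them.

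These 30 introns were almost fully spliced in control cells, a trait that the way they were picked favours. All lay above the control in every knockdown library, so the rule kept their mean rises below its limit. Such a small rise is a large change of boundary against spliced reads only where control retention is low. The low control values are therefore given as a description of the list. Median retention of the 30 was 3.86% and 1.78% with sh1 and 4.06% and 2.44% with sh2, against 0.347% and 0.571% in the control. The retained introns beside them had medians of 23.3% and 10.6% with sh1 and 17.7% and 9.22% with sh2, against 2.68% and 2.17% in the control. Experiment 1 was higher than experiment 2 in 29 of the 30 with sh1 and in 29 with sh2, against 10 of the 30 in the control. The rise reached both ends, with a median of 2.34 points on the facing side and 2.92 points on the far side.

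**Figure D4:**
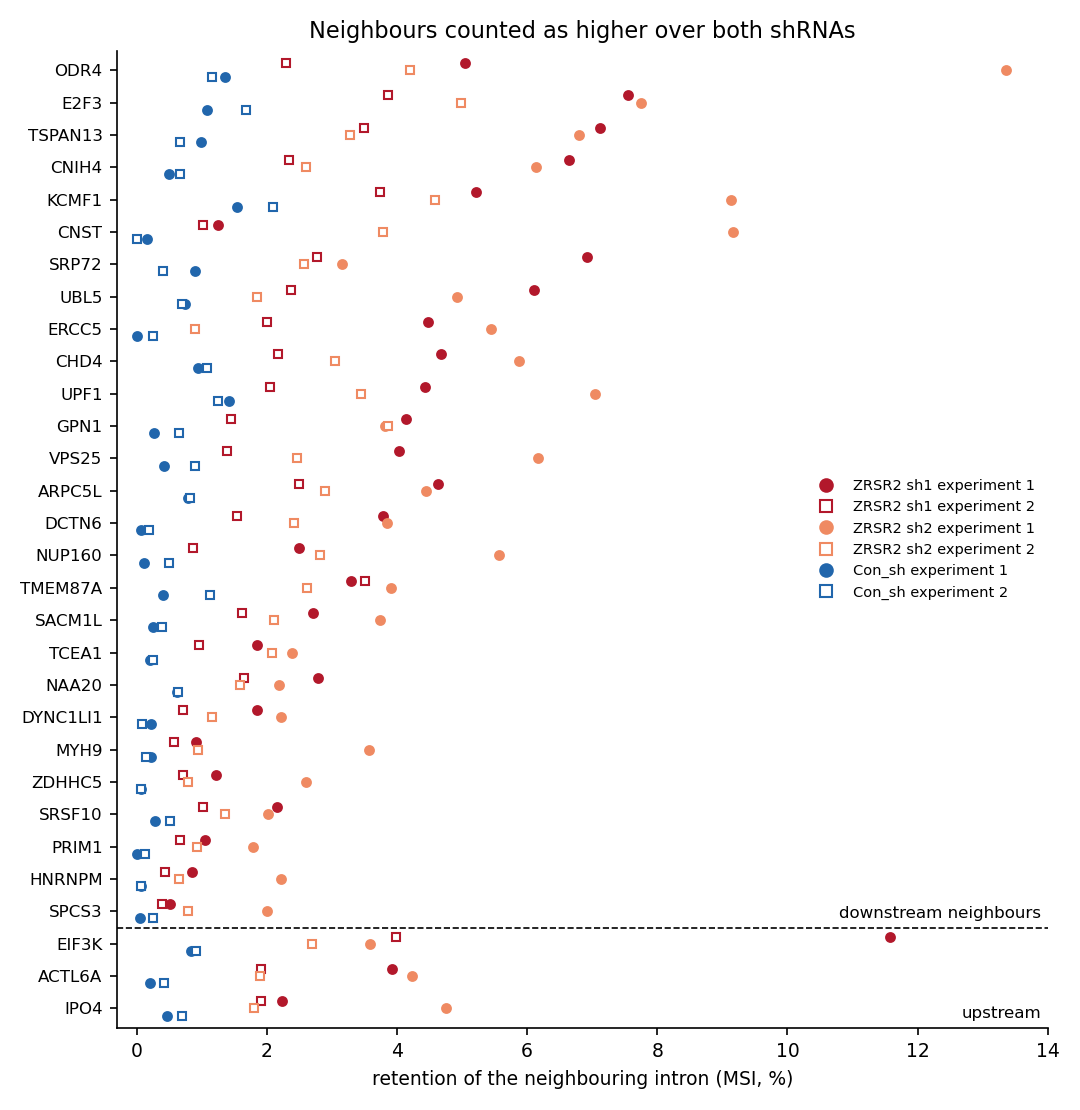
Retention (MSI, percent) in each library of the 30 neighbours counted as higher over both shRNAs, ordered by rise, with downstream neighbours above the dashed line and upstream ones below it. Red is sh1, orange sh2 and blue the control, filled circles are experiment 1 and open squares experiment 2; the 4 knockdown libraries lie right of both controls in every row, and 27 of the 30 rows are downstream neighbours.

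Among the 30, CNIH4, a cargo receptor of the endoplasmic reticulum, had 6.64% and 2.34% with sh1 and 6.14% and 2.60% with sh2, against 0.503% and 0.662% in the control, in its intron chr1:224360564-224365878. VPS25, a subunit of the ESCRT-II complex, had 4.03% and 1.39% with sh1 and 6.16% and 2.46% with sh2, against 0.427% and 0.898% in the control. SACM1L, a phosphoinositide phosphatase, had 2.71% and 1.62% with sh1 and 3.73% and 2.11% with sh2, against 0.256% and 0.395%. In each of these introns the lowest knockdown library lay above the highest control library, by less in VPS25 than in the others. SRP72, of the signal recognition particle, DCTN6, of dynactin, and DYNC1LI1, of dynein, rose by 3.20, 2.76 and 1.33 points.

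UPF1, the helicase of nonsense-mediated decay, had 4.43% and 2.05% with sh1 and 7.05% and 3.44% with sh2, against 1.41% and 1.24% in the control, downstream of its retained intron. Upstream of the same intron UPF1 had 8.98% and 3.09% with sh1 and 11.7% and 4.73% with sh2, against 3.70% and 1.99% in the control, and there 1 knockdown library fell within the control range. SRSF10 and HNRNPM, both splicing regulators, rose by 1.25 and 0.973 points. TCEA1, an elongation factor, PRIM1, the catalytic subunit of primase, and GPN1, a GTPase needed to bring RNA polymerase II into the nucleus, rose by 1.59, 1.05 and 2.86 points. ERCC5, the endonuclease XPG of nucleotide excision repair, had 4.48% and 2.01% with sh1 and 5.44% and 0.890% with sh2, against 0% and 0.243% in the control.

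CHD4, the helicase of the NuRD complex, had neighbours on both sides that were higher in all 4 knockdown libraries. The downstream one, chr12:6573270-6577784, had 4.68% and 2.17% with sh1 and 5.87% and 3.05% with sh2, against 0.941% and 1.08% in the control. The upstream one, chr12:6578138-6578408, had 6.13% and 1.80% with sh1 and 4.67% and 1.92% with sh2, against 1.56% and 1.26% in the control, and was not among the 30.

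Of the 3 upstream neighbours, ACTL6A, a subunit of chromatin remodelling complexes, had 3.93% and 1.92% with sh1 and 4.23% and 1.90% with sh2, against 0.201% and 0.415% in the control. EIF3K, of the translation initiation factor eIF3, had 11.6% and 3.99% with sh1 and 3.59% and 2.69% with sh2, against 0.829% and 0.913% in the control. Its highest library, sh1 in experiment 1, stood well apart from the other 3 knockdown libraries. The neighbour counted as lower, in MORC3, had 0.290% and 0.816% with sh1 and 1.39% and 1.003% with sh2, against 8.07% and 1.69% in the control, so that 1 control library carried most of the difference.

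The neighbours with the largest mean rises and falls had high retention in the control. The 8 with the largest rises, 14.4 to 25.6 points, had a median control retention of 23.9%, none was higher in all 4 knockdown libraries, as the rule requires, and 4 of the 8 overlap another intron. STAG3, a cohesin subunit of meiosis, held 2 of them. Its intron chr7:100211540-100211794 had 48.9% and 21.6% with sh1 and 80.7% and 35.3% with sh2, against 29.8% and 12.2% in the control, with experiment 1 above experiment 2 in every group. The others lay in GPAA1, SLC39A4, KIF7, SLC44A2, SPC24 and an unnamed gene. The 8 with the largest falls, 6.73 to 11.6 points, had a median control retention of 31.2%, and 3 of them, in CRY1, EXOC3L4 and HELZ2, were lower in all 4 knockdown libraries. CRY1, a repressor of the circadian clock, had 9.36% and 12.3% with sh1 and 8.84% and 13.2% with sh2, against 17.3% and 18.0% in the control, without overlap.

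Lists of genes sharing a role, written for this work, held few neighbours each. Beside the 15.3% of all neighbours that were higher in all 4 knockdown libraries and their median rise of 0.509 points, 97 neighbours in 44 genes that, from memory, carry a U12-type intron had a median rise of 0.261 points, with 19 higher and 7 lower in all 4. The 20 neighbours of signalling kinases had a median of 0.0310 points, with 2 higher and 4 lower. The 17 neighbours in RNA processing and transcription genes had a median of 1.29 points, with 7 higher and 0 lower. Neighbours in nuclear import and export genes (15, median 0.526 points, 4 higher), in trafficking and protein quality control genes (12, median 0.344 points, 6 higher and 1 lower) and in DNA repair genes (7, median 0.220 points, 3 higher) had medians between these.

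The rule did not use the difference between sh1 and sh2 directly, but it was not free of it. Introns that rose by 5 points or more with all 4 knockdown libraries above the control were barred. A rise that large was left only where the libraries disagreed, as in 143 neighbours, which can add differences between the shRNAs. Shares of calls beside those of all introns are therefore a description. By edgeR's quasi-likelihood test, 0 of the 1650 neighbours were higher with sh1 than with sh2 and 3 were lower at an adjusted p under 0.05, against 0.0246% and 0.0097% of all introns tested. At an unadjusted p under 0.05 the test gave 67 neighbours (4.06%), against 3.83% of all introns. Neighbours had a median log2 difference of -0.13 and all introns tested one of -0.14, a general offset between both shRNAs that neighbours and other introns had alike in size.

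CNST encodes consortin, a protein of connexin transport. Its neighbour chr1:246634011-246634472 had 1.25% and 1.02% with sh1 and 9.16% and 3.79% with sh2, against 0.161% and 0% in the control. It was lower with sh1 than with sh2 by a log2 difference of -2.51 (SE 0.527, edgeR adjusted p = 0.0104), and sh1 was the lower one in both experiments. The retained intron of CNST ran the other way, at 58.9% and 32.1% with sh1 and 23.3% and 16.4% with sh2, against 5.82% and 5.11% in the control.

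UBE2H encodes a ubiquitin-conjugating enzyme. Its neighbour chr7:129879643-129880894 had 1.96% and 0.810% with sh1 and 18.1% and 7.73% with sh2, against 17.3% and 4.59% in the control, a log2 difference of -3.27 (SE 0.616, edgeR adjusted p = 0.00099) between both shRNAs. The control libraries lay with sh2, above both sh1 libraries. The intron without a gene name, chr16:70368169-70371304, had 4.62% and 3.90% with sh1 and 31.7% and 41.8% with sh2, against 6.49% and 3.42% in the control, a log2 difference of -3.70 (SE 0.678, edgeR adjusted p = 0.000477). It overlaps another intron. Its boundary reads were nearly level, at 27 and 29 with sh1 and 26 and 33 with sh2, against 34 and 30 in the control, while its spliced reads were 279 and 357 with sh1 and 28 and 23 with sh2, against 245 and 423 in the control. The reads of UBE2H and of the unnamed intron lay mainly at the boundary away from the retained intron. In the unnamed intron the far side alone stood at 6.69% and 5.56% with sh1 and 48.1% and 57.4% with sh2, and the facing side at 2.45% and 2.19% with sh1 and 0% and 8% with sh2. In UBE2H the far side stood at 3.65% and 1.21% with sh1 and 29.8% and 14.4% with sh2, and the facing side at 0.199% and 0.407% with sh1 and 1.82% and 0% with sh2. With the smaller boundary count doubled, the log2 difference was -0.71 for the unnamed intron, -1.73 for UBE2H and -4.04 for CNST, none of them called. None of the 3 calls held under all alternatives: adjusted p-values ran from 2.82e-05 to 1 for CNST, from 9.28e-07 to 1 for UBE2H and from 5.11e-06 to 1 for the unnamed intron. Leaving out 1 library ended the call of CNST without replicate 1 of sh1 (edgeR adjusted p = 0.200), without replicate 2 of sh1 (0.233) and without replicate 1 of sh2 (1). It ended that of UBE2H without replicate 2 of sh1 (edgeR adjusted p = 0.0724) and without replicate 1 of sh2 (1), and that of the unnamed intron without replicate 2 of sh2 (0.153).

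The 3 neighbours next in order did not pass the edgeR test. SPCS3, a subunit of signal peptidase, had a log2 difference of -1.56 (adjusted p = 0.933), WDR41, a partner of C9orf72, one of -2.78 (adjusted p = 0.742) and EIF3K one of 1.21 (adjusted p = 0.689).

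The difference between experiments was not used directly either, but barring large rises shared by all 4 knockdown libraries can add to it in the same way. Among the 4 knockdown libraries, with the shRNA held as a term, edgeR's quasi-likelihood test found 17 neighbours higher in experiment 1 than in experiment 2 and 0 lower, against 0.359% and 0.0172% of all introns tested. At an unadjusted p under 0.05 the test gave 201 neighbours (12.2%), against 8.18% of all introns. The median log2 difference was 0.26 for neighbours, 0.60 for retained introns and 0.15 for all introns, and the fit had 1 residual degree of freedom. In percentage points the knockdown libraries of experiment 1 exceeded those of experiment 2 by a median of 0.403 over the neighbours and 6.13 over the retained introns. In the control the median of this difference over the neighbours was 0. Boundary reads made up a larger share of the reads in experiment 1 than in experiment 2 within each group, 2.70% and 2.14% with sh1, 2.92% and 2.48% with sh2 and 2.51% and 2.29% in the control, and its part in the result was not tested.

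The 17 neighbours were higher in experiment 1 with both shRNAs, and 13 of them were also higher in experiment 1 in the control. Of the 17, 8 lay downstream and 9 upstream, and 6 were among the 30 counted over both shRNAs. The upstream neighbour of CHD4 had the smallest adjusted p, with a log2 difference of 1.58 (SE 0.293, edgeR adjusted p = 0.000199). UBL5, a ubiquitin-like protein tied to splicing, followed with 6.10% and 2.37% with sh1 and 4.93% and 1.85% with sh2, against 0.742% and 0.690% in the control, and a log2 difference of 1.44 (SE 0.275, edgeR adjusted p = 0.000354). The next were STAG3 with a log2 difference of 2.36 (edgeR adjusted p = 0.00149), CAPN1, a calpain protease, with 1.44 (edgeR adjusted p = 0.00195), VPS25 with 1.47 (edgeR adjusted p = 0.00197) and UPF1 upstream with 1.52 (edgeR adjusted p = 0.00202). None of these 6 calls was kept with the smaller boundary count, doubled, as the boundary reads, where every edgeR adjusted p was 0.970. DESeq2 called CHD4 (adjusted p = 0.0275) and UBL5 (0.000176) and did not call CAPN1 (0.345) or VPS25 (0.0695). For STAG3 and UPF1 it gave no adjusted p.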

How the data were processed

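Per the labels' protocols, polyA-selected RNA of K562 cells was made into libraries with a NEBNext Ultra kit. For the aligner and the counting program, the sources used here give no name. The authors deposited 1 table for each of the 6 libraries, with counts of reads at both intron boundaries and of spliced reads, a covered fraction between 0 and 1, and a percent named MSI, per the file headers. MSI was recomputed from the counts (largest deviation 2.8e-14). An intron's deposited counts also take in reads of overlapping introns.

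The submitters' processing notes name hg19. Read from RefSeq windows on GRCh38.p14, however, 98.0% of 3383 introns began with GT, against 0.059% and 0% after a shift by 1 nt, so positions are given as GRCh38, starts counted from 1. The RefSeq table named 94.6% of introns. The first deposited boundary column was the lower coordinate: introns that share that end had identical counts there in 100% of cases.

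Introns with at least 20 reads on average (134078) were tested with edgeR 4.0.16 (R 4.3.3): boundary and spliced counts of each library formed a pair, the library was a factor, and group effects on boundary against spliced reads were tested by quasi-likelihood with Benjamini-Hochberg adjustment over all introns. All 6 libraries shared 1 estimate of the spread (3 residual degrees of freedom). The experiment contrast used the 4 knockdown libraries. The procedure was tested on simulated data. DESeq2 1.42.0, other filters, distances and limits, and leaving out each library were alternatives.

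Members, gene lists and tests were chosen with earlier results of these data known. Named are neighbours of the 12 retained introns with the largest rises, the 8 largest rises and falls, the 6 smallest adjusted p in each tested contrast, neighbours in 23 listed genes and those at the limits of the rule. Genes beyond these, such as the 30 called over both shRNAs and those with readable first bases, were named after their values were seen. Calls and folds cover counting error and the spread of 2 libraries a group.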

Additional observations from a re-analysis of the deposited data

Results flagged for a closer look

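The response to sh1 and the response to sh2 differed, by edgeR's test of the difference itself, in 3 neighbours. The rule can favour such differences, since it bars introns with large rises shared by all 4 knockdown libraries. The CNST intron at chr1:246634011-246634472 had a log2 difference of -2.51 between sh1 and sh2, with 1.25% and 1.02% retention with sh1, 9.16% and 3.79% with sh2 and 0.161% and 0% in the control. The UBE2H intron at chr7:129879643-129880894 had a log2 difference of -3.27, with both sh1 libraries below the control libraries. The unnamed intron at chr16:70368169-70371304 had a log2 difference of -3.70, with few spliced reads in both sh2 libraries, 28 and 23.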

How the results depend on the processing

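Medians of the rise kept their sign under all alternatives run. Limiting introns to a covered fraction of at least 0.95, which left out 850 neighbours, gave a median rise of 1.43 points, 9 neighbours called over both shRNAs, 0 between sh1 and sh2 and 76 between experiments, where 212, 0 and 2379 of 39970 introns were called in all. A rise of at least 10 points for the retained introns left 711 neighbours with 17 calls over both shRNAs. Taking only retained introns that edgeR called, an alternative chosen after seeing the data, left 467 neighbours, 25.9% of them higher in all knockdown libraries. Their median rise was smaller, 0.338 points against 0.509 for all neighbours, with 0.150 points upstream and 0.876 downstream. Doubling the smaller boundary count gave a median rise of 0.314 points. It gave 10 calls over both shRNAs, 0 between sh1 and sh2 and 0 between experiments, beside 89, 0 and 0 of 134076 introns. DESeq2 gave 10, 1 and 2, beside 212, 5 and 54 of 134078 introns, without an adjusted p for 509 neighbours over both shRNAs and 1566 between experiments. At least 50 reads gave 1 call between sh1 and sh2, beside 9 of 116705 introns, and no filter 10 between experiments, beside 376 of 222345. The count of 31 over both shRNAs lay between 12 and 44 when 1 library was left out, at 19 without replicate 1 of sh1, 12 without replicate 1 of the control and 19 without replicate 2 of the control. The calls between sh1 and sh2 lay between 1 and 3, with 1 without replicate 1 of sh2.

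Without 1 library, the median rise lay between 0.451 and 0.663 points, that of the facing side between 0.462 and 0.667, that of the far side between 0.318 and 0.488, that of upstream neighbours between 0.286 and 0.416 and that of downstream ones between 0.602 and 0.934. The share of neighbours with all knockdown libraries above the control lay between 18.5% and 31.7% and the share below between 3.88% and 10.8%, since fewer libraries had to lie apart. The experiment contrast has no residual degrees of freedom without a library and gave no value.

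Deviations of same-numbered libraries correlated by 0.0505 (sh1 and control), 0.107 (sh2 and control) and 0.104 (sh1 and sh2), so the experiment numbers were not taken to pair the libraries. With a replicate block, 49 neighbours were called over both shRNAs and 4 between sh1 and sh2, EIF3K among them (adjusted p = 0.0176).

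Each group has 2 libraries, and 143 neighbours have large rises that not all libraries share. Differences under 1 point rest on few boundary reads in most neighbours. The tables do not tell U12-type from U2-type introns, and reads of overlapping introns cannot be separated.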
